A study of Mus musculus with 8 samples.

Results

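The genes described here encode the collagens, the laminins and other proteins of the extracellular matrix, the protein scaffold that cells secrete around themselves. They were chosen by name. Every gene whose symbol is that of a collagen chain (such as Col1a1) or a laminin chain (such as Lama1) was taken, and these were added by name: Fn1, Postn, Lum, Dcn, Bgn, Fbn1, Fbn2, Nid1, Nid2, Hspg2, Tnc, Sparc, Lox and Loxl1 to Loxl4. RefSeq GRCm38.p6 lists 72 such genes. Of these, 70 had a probe on the array, and 55 were bright enough to be tested, out of 14503 genes tested in all.

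Mouse cells labelled as strain C57BL/6, carrying a Runx1 gene that doxycycline switches on (iRUNX1, a Tet-on system), were differentiated from embryonic stem cells into hemogenic endothelium, the endothelium from which blood cells form. Embryoid bodies grew for 3.25 days. Their Flk-1+ cells were purified, cultured and purified again, and were then kept for 2 days on gelatin. The uninduced group (labelled DOX- and control, without induction) and the induced group (labelled DOX+ and Runx1 expression, with doxycycline overnight at 0.3 µl/ml as the labels state it) both carried the inducible gene, and each had 3 biological replicates and 1 technical repeat array. Cells given doxycycline but lacking the inducible gene were not analysed here. Every difference below is one between cultures with and without doxycycline. The labels do not say whether more than 1 clone of the line was used.

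The deposited log2 table of the same arrays has columns that go against their names: 6 of 8 tracked another array than the one named, so groups were taken from the scanner files and their labels, and that table was not used. RNA was hybridised to 8 Agilent 1-colour arrays, 1 for each biological replicate and 1 technical repeat per group. All 8 arrays were on 1 slide and in 1 scan. The 75th percentile of the processed signal ranged from 338 to 973 over the 8 arrays, and the share of spots well above background ran from 55.6% to 70.4%. Values below are log2 signals relative to that percentile of the same array, so a difference of 1 is a 2-fold change beside an array's overall signal. Each probe has its own brightness, so values were compared between groups and not between genes. Runx1 itself differed by -1.03 (SE 0.32, adjusted p 0.126 in limma) at its brightest probe. It is not stated whether this probe reads the inducible copy too, so Runx1 does not check the labels.

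Collagens are built from triplets of chains wound into a helix. Fibril-forming collagens make the ropes of connective tissue, collagen IV makes the sheet of the basement membrane, and collagen VI makes beaded filaments near the cell surface. Laminins are trimers of an alpha, a beta and a gamma chain that polymerise on the cell surface, and nidogens and perlecan tie the laminin and collagen IV networks together. Endothelial cells rest on such a basement membrane, and blood cells leave it when they round up and detach.

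Of the 55 tested genes, 5 rose on induction, 4 fell and 46 did not pass the threshold of an adjusted p under 0.05 in limma. Over all 14503 genes, 4.14% rose and 2.17% fell. At an unadjusted p under 0.05, 11 of the 55 were higher and 13 lower, against 13.9% and 7.77% of all genes. The 5 that rose were Col6a1, Col6a2, Col8a2, Col2a1 and the lysyl oxidase gene Loxl3. Those that fell included Col4a1 and Col4a2, the chains of the common form of collagen IV, and the laminin chain Lama5. The median log2 change of the 55 genes was -0.30, against 0.089 over all genes tested, and 38 of the 55 lay below 0, as did 41.0% of all genes. With the array signal scaled to spike-in RNA, the median of the 55 genes turned to 0.82 and that of all genes to 1.21, so the direction of the median holds only relative to the overall signal. The 75th percentile itself stood higher over the 4 brightest spike-in probes on the induced arrays, by 1.12 ± 0.44 (SD, n = 3 pairs, from 0.75 to 1.60), and by 0.35 in the technical pair. Spike-in scaling adds that mean of 1.12 to every change, and the changes given for it below each had an SE of 0.72. A value near 0 under that scaling therefore does not show that a gene was unchanged. In bulk cultures such as these, fewer cells of a type and less RNA per cell cannot be told apart.

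Same-numbered uninduced and induced arrays deviated together from their group means, and a fit with the replicate number as a block therefore also applies. In that fit 10 of the 55 rose and 13 fell, against 9.37% and 6.81% of all genes, and the genes named above were among them. Fitted changes of at least 1 in either direction were seen in 14 of the 55, against 9.61% of all genes. The induced arrays lay wholly above the uninduced ones for 11 of the 55 genes and wholly below them for 16, against 19.6% and 8.71% of all genes. All 3 pairs differed in the same direction for 40 of the 55, against 59.5% of all genes. Without uninduced replicate 1 the count was 5 that rose and 4 that fell, but it was 3 and 2 without uninduced replicate 2, 2 and 2 without uninduced replicate 3, 1 and 2 without induced replicate 1, 1 and 2 without induced replicate 2, and 2 and 4 without induced replicate 3. Col6a1 and Lama5 passed whichever array was left out, with adjusted p of at most 0.0497 and 0.0421 in limma.

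**Figure D1:**
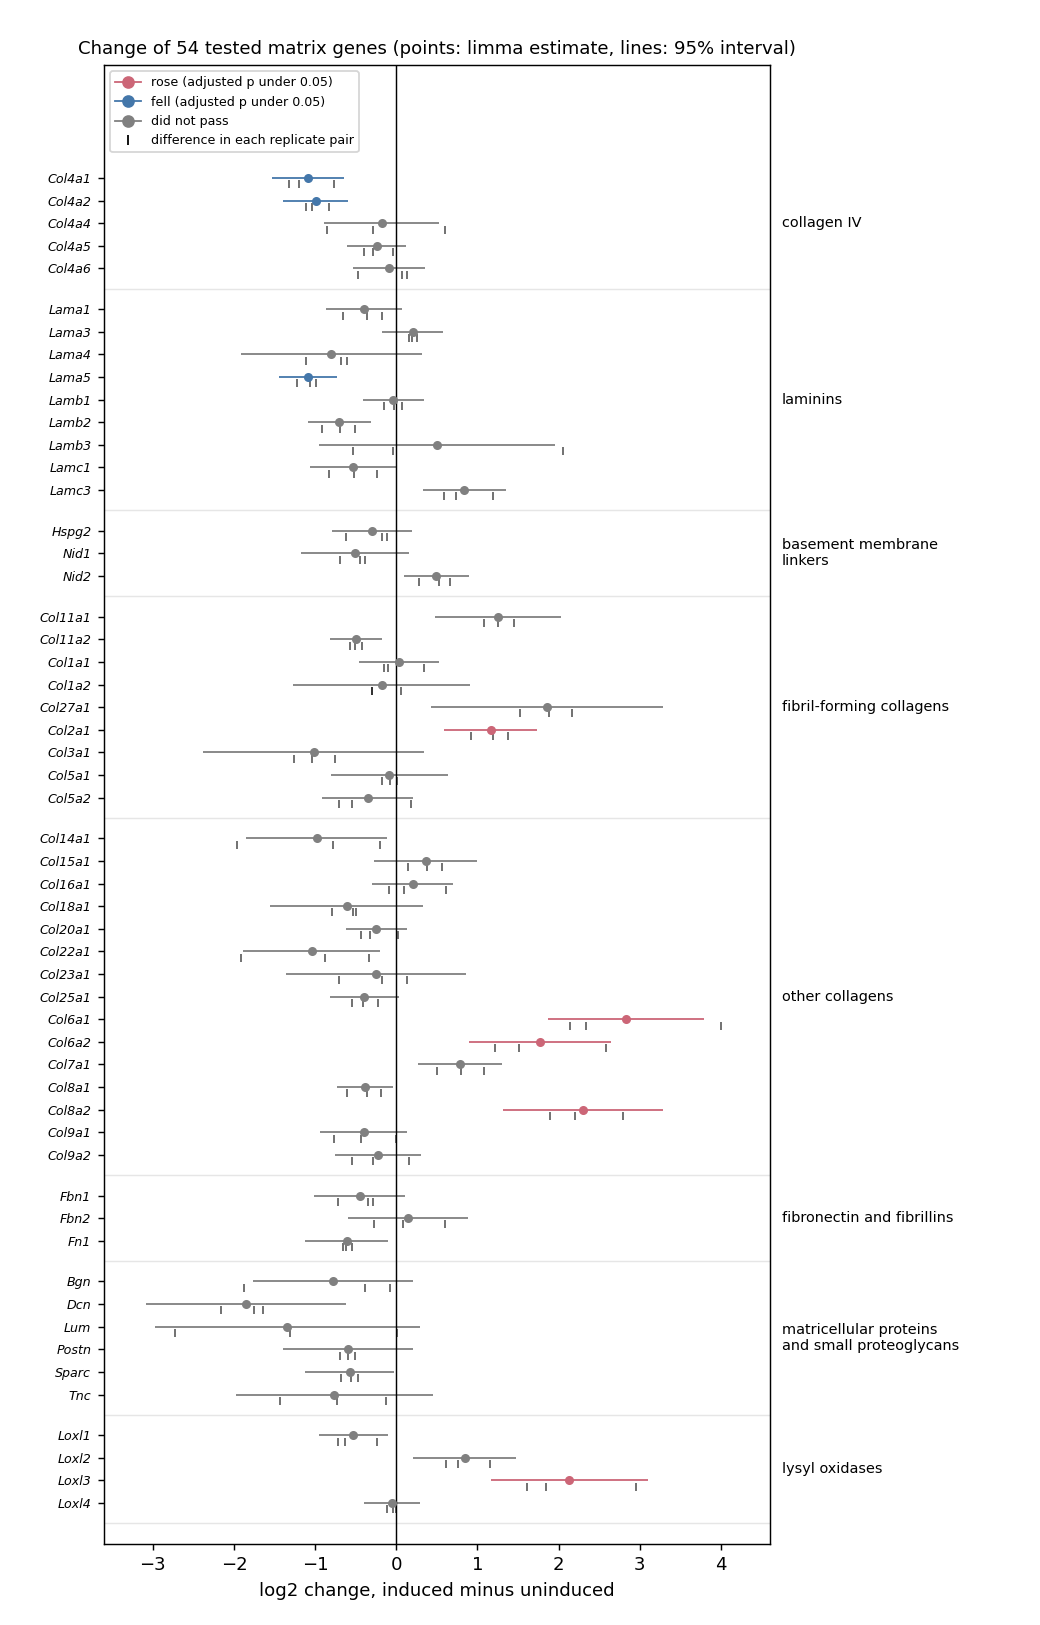
Log2 change (induced minus uninduced) of 54 of the tested matrix genes, grouped by role, with the limma estimate as a point, its 95% interval as a line and the difference of each of the 3 replicate pairs as ticks. Col4a1, Col4a2 and Lama5 are among the genes that fell, and the change of highest value is that of Col6a1 at 2.83.

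**Figure D2:**
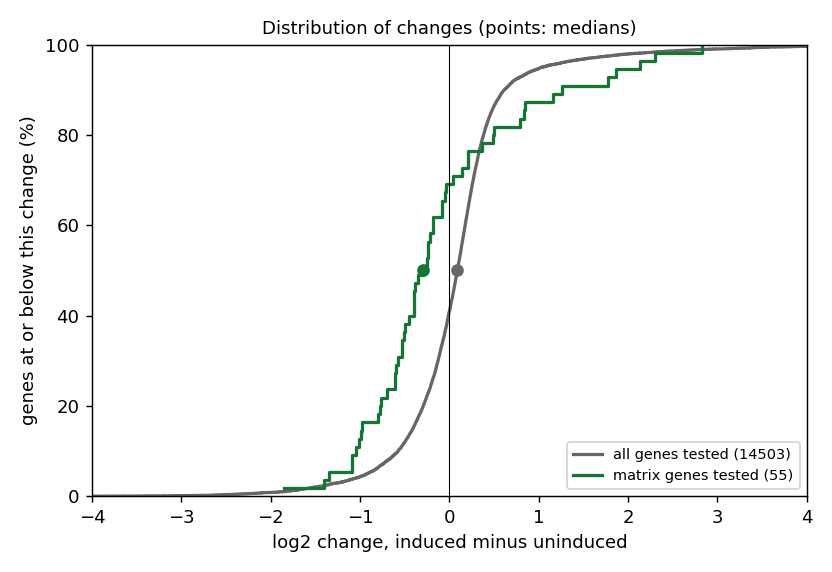
Share of genes (%) at or below a given log2 change (induced minus uninduced), for all 14503 genes tested and for the 55 matrix genes, with a point at each median. The curve of the matrix genes lies to the left at its median of -0.30 and to the right in its upper part, where the 5 genes that rose lie.

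Collagen IV forms the sheet of the basement membrane, and the trimer of Col4a1 with Col4a2 is its most widespread form. Col4a1 read 6.54, 6.19 and 6.25 in uninduced replicates 1, 2 and 3, and 5.23, 5.00 and 5.48 in the induced replicates. Every induced array lay below every uninduced one. The change was -1.09 (SE 0.19, adjusted p 0.0212 in limma), a level 2.13-fold lower. Col4a2 read 5.80, 5.96 and 6.01 uninduced and 4.77, 4.85 and 5.18 induced, again with no overlap. It fell by 0.99 (SE 0.17, adjusted p 0.0200), or 1.99-fold. Both genes were therefore lower by closely similar amounts, in all 3 replicate pairs. With spike-in scaling, however, their changes were 0.032 and 0.13 (SE 0.72 each) and did not pass. Both also missed the threshold with median scaling (adjusted p 0.0758 and 0.0612), without the filter on dim probes (0.0533 and 0.0531) and, at adjusted p between 0.0584 and 0.0948, without induced replicate 1 or 2 or uninduced replicate 2 or 3.

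The remaining collagen IV chains belong to the specialised trimers of kidney, eye and smooth muscle. Col4a5 differed by -0.24 (95% interval -0.61 to 0.13) and Col4a6 by -0.087 (-0.53 to 0.35), and neither passed. Col4a4 differed by -0.18 (-0.88 to 0.52), with pairs at 0.60, -0.29 and -0.85. Col4a3 was not bright enough to be tested.

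Col4a1 and Col4a2 lie head to head on chromosome 8 and share a promoter, so the windows around both starts are shown here. The windows have 78 bases in common. Each window holds 250 bases before and 50 after the annotated start, from RefSeq GRCm38.p6, at chr8:11312777-11313076 on the minus strand for Col4a1 and chr8:11312555-11312854 on the plus strand for Col4a2. Capitals mark GGGCGG, the core of an SP1 site, and CCAAT, on either strand.
Col4a1: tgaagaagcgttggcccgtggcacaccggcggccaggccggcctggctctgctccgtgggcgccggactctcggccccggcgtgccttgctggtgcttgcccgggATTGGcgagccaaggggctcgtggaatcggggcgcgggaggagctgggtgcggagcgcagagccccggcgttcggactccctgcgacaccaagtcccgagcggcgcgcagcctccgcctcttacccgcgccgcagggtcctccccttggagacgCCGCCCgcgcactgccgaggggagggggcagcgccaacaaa
Col4a2: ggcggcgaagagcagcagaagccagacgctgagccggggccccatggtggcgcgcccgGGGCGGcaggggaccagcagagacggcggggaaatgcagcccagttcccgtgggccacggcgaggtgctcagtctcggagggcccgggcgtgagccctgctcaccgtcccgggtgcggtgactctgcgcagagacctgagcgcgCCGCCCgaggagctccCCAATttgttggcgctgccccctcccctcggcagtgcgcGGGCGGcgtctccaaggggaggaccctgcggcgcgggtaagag
The starts are 21 bases apart, and the last 78 bases of one window are the reverse complement of the last 78 of the other. GGGCGG occurred 1 time in the Col4a1 window and 3 times in that of Col4a2, and CCAAT 1 time in each. The GGGCGG match of Col4a1 lies in the shared bases and is the same site as the last match of Col4a2. The letters TGTGGT, a form of the core of a RUNX site, occurred on neither strand of either window. Another form of that core, TGCGGT, was not searched and can be read in the Col4a2 window. The letters AGATAA, which GATA factors bind, were not found in either window. The letters CCGGAA, a longer form of the site that ETS factors bind, and TATAAA, a form of the TATA box, were absent from both windows as well. The shorter ETS letters GGAA were not searched and can be read in both windows.

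Laminin chains were measured for all 3 subunit classes. Lama5, the alpha-5 chain of laminins in endothelial and many other basement membranes, read 5.76, 5.42 and 5.59 uninduced and 4.54, 4.42 and 4.54 induced. It fell by 1.09 (SE 0.15, adjusted p 0.0104 in limma), or 2.13-fold, but stood at 0.033 (SE 0.72) with spike-in scaling. The 3 induced values of Lama5 were nearly equal and lay well below the lowest uninduced value.

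The changes of several other chains did not pass. Lamb1, the beta chain of many laminins, differed by -0.034 (95% interval -0.41 to 0.34), and Lamc1, the most widespread gamma chain, by -0.53 (-1.06 to 0.00042, adjusted p 0.231). Lamb2, the beta chain of vessel and muscle basement membranes, read 2.27, 2.03 and 1.93 uninduced and 1.36, 1.53 and 1.24 induced, with a change of -0.70 (SE 0.16) whose adjusted p was 0.0558, and 0.0286 with the replicate block. Lama3 and Lamb3, chains found in epithelial laminins, did not pass either, with Lama3 at 0.20 (-0.17 to 0.58) and Lamb3 at 0.50 (-0.96 to 1.95).

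Lama4, the alpha chain typical of endothelium, read 1.18, 2.39 and 2.49 uninduced and 0.50, 1.29 and 1.88 induced. The groups overlapped, but each pair was lower on induction, with pair differences of -0.68, -1.11 and -0.61. The change of -0.80 (SE 0.47) did not pass (adjusted p 0.367; with the block 0.0264). It ranged from -1.22 without uninduced replicate 1 to -0.44 without induced replicate 1. Lama1, the alpha chain of early embryonic basement membranes, differed by -0.40 (adjusted p 0.300). Lamc3 differed by 0.84 (SE 0.21, adjusted p 0.0754, and 0.0277 with the block), with every induced array above every uninduced one, and by 0.28 with normexp. Lama2 was not bright enough to be tested. A second probe of Lama3 exceeded background clearly on 0 of 3 uninduced arrays and on 3 of 3 induced arrays, at least 1.69-fold higher on induction relative to the lowest signal called above background, so the probes of that gene disagree in size.

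The proteins that link both networks did not pass at their brightest probes. Nid1 (nidogen-1) differed by -0.51 (95% interval -1.17 to 0.16) and the perlecan gene Hspg2 by -0.30 (-0.79 to 0.19). Their other kept probes differed by more, at -1.33 and -1.32 for Nid1 and -0.81 for Hspg2. Nid2 (nidogen-2) read 3.12, 3.25 and 3.16 uninduced and 3.65, 3.92 and 3.44 induced, a change of 0.49 (0.094 to 0.89) with an adjusted p of 0.155. With the block neither nidogen passed (0.0571 and 0.0680). The mean of the 3 kept probes of Nid1, however, differed by -1.05 (adjusted p 0.0254 in limma) and passed, so the call for Nid1 depends on the probe, and with spike-in scaling Nid1 stood at 0.61.

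Collagen VI gave the change of highest value among the 55 genes. Its filaments are assembled from alpha-1, alpha-2 and a longer chain, and lie between the basement membrane and the interstitial matrix. Col6a1 read -0.89, -0.048 and 0.61 uninduced and 3.12, 2.29 and 2.75 induced. Every induced array lay well above every uninduced one. It rose by 2.83 (SE 0.40, adjusted p 0.0120 in limma), or 7.11-fold, and passed in each of the 17 alternative settings, at changes from 2.44 to 3.95. Col6a2 read -4.73, -3.28 and -4.01 uninduced and -2.15, -2.06 and -2.50 induced, and rose by 1.77 (SE 0.36, adjusted p 0.0394), or 3.41-fold. Both genes rose in every pair, most in replicate 1 (4.01 and 2.58) and less in replicates 2 (2.34 and 1.22) and 3 (2.14 and 1.51).

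Col6a2 was less firm than Col6a1. With normexp background correction (a model of signal plus background noise) its change was 0.74 (adjusted p 0.149). It also missed the threshold without a filter (0.0792), with the technical repeats averaged with number 3 (0.0715) and, at 0.0820 to 0.115, without any 1 induced array or uninduced replicate 3. Col6a4, Col6a5 and Col6a6 were not bright enough to be tested. Col6a3 had no probe whose accession named it.

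Col6a1 and Col6a2 are neighbours on chromosome 10 and lie in the same orientation, so each has its own start, and RefSeq gives 2 starts for Col6a2. The windows are shown because these genes rose together, at chr10:76725995-76726294 for Col6a1 and at chr10:76623355-76623654 and chr10:76623581-76623880 for Col6a2, all on the minus strand of GRCm38.p6, with the same capitals as above.
Col6a1: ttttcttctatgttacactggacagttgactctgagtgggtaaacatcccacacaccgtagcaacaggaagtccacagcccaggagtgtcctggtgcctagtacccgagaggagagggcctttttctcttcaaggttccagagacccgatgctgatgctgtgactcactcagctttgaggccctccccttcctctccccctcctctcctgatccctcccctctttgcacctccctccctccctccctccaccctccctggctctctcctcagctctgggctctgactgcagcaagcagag
Col6a2 window 1: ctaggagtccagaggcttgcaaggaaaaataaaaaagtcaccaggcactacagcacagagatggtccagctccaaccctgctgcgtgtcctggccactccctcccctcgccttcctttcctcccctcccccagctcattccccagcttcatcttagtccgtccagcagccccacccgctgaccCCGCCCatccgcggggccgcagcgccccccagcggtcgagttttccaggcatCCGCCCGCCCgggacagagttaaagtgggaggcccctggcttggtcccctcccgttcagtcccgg
Col6a2 window 2: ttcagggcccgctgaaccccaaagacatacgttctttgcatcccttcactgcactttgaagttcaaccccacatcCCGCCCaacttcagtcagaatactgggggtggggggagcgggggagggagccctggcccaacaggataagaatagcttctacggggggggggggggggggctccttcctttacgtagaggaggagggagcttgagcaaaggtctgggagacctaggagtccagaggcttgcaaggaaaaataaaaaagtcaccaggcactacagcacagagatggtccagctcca
The Col6a1 window held none of the 6 motifs in the exact letters searched, though the shorter ETS letters GGAA can be read in it. GGGCGG occurred 3 times in the first Col6a2 window, where 2 matches overlap, and 1 time in the second. The starts of Col6a2 lie 226 bases apart, and its windows share 74 bases.

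Windows were found for 36 of the 55 tested genes, 42 in all, each of 300 bases. GGGCGG was found on either strand in 28 of the 42 (66.7%), against 35.7% of all 32851 windows in the table, and CCAAT in 13 (31.0%) against 37.4%. TGTGGT was found in 3 (7.14%) against 16.8%, AGATAA in 1 (2.38%) against 11.2%, CCGGAA in 1 (2.38%) against 14.9% and TATAAA in 5 (11.9%) against 13.6%. Of the genes that passed, Lama5 and Col8a2 had 4 matches of GGGCGG each and none of the other letters searched. Col2a1 and Loxl3 had no entry. A match describes these letters only, and other forms of the RUNX and ETS sites were not counted.

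Col8a2, a chain of the collagen VIII network of vessel walls and cornea, also rose. It read -4.40, -2.86 and -3.89 uninduced and -1.61, -0.97 and -1.68 induced, with no overlap, a change of 2.30 (SE 0.41, adjusted p 0.0253 in limma) or 4.93-fold. Its second kept probe, which exceeded background clearly on 2 of 3 uninduced arrays, differed by only -0.11, so the rise rests on 1 of its probes, and the mean of both gave 1.09 (adjusted p 0.0863). Its change was 1.23 (0.0588) with normexp, it did not pass without the filter (0.0546), and it missed the threshold without any 1 induced array or uninduced replicate 3 (0.0618 to 0.0812). Col8a1, the other chain of that network, differed by -0.39 (95% interval -0.73 to -0.040, adjusted p 0.191).

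Among the fibril-forming collagens, 1 of 9 tested rose and 0 fell in limma, against 4.14% and 2.17% of all genes. At an unadjusted p under 0.05 there were 3 and 1, against 13.9% and 7.77%, and with the block 3 rose and 2 fell, against 9.37% and 6.81%. Col2a1, the main collagen of cartilage, read -3.48, -4.22 and -4.10 uninduced and -2.56, -3.03 and -2.72 induced. It rose by 1.16 (SE 0.24, adjusted p 0.0402), or 2.24-fold, without overlap. This call was lost with normexp (0.21, adjusted p 0.446), with quantile normalization (0.0544), without the filter (0.0846) and when any array but uninduced replicate 1 was left out (0.0697 to 0.147).

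Col11a1, which forms mixed fibrils with Col2a1, read -1.75, -1.90 and -2.46 uninduced and -0.30, -0.65 and -1.39 induced. Its change of 1.26 (SE 0.32) did not pass (adjusted p 0.0782; with the block 0.00557). Col27a1, a collagen of developing cartilage that was well above background on 2 of 3 uninduced arrays, differed by 1.86 (SE 0.60, adjusted p 0.137, and 0.00360 with the block). Its uninduced level is therefore poorly measured, and with normexp its change was 0.84 (adjusted p 0.164).

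Collagen I, the main collagen of bone and connective tissue, did not pass. Col1a1 read 5.23, 5.68 and 5.92 uninduced and 5.57, 5.59 and 5.77 induced, so the groups overlapped fully, with a change of 0.034 (95% interval -0.46 to 0.53). Col1a2 differed by -0.18 (-1.28 to 0.91). Col3a1, found with collagen I in vessels and other elastic tissue, read 5.07, 4.06 and 3.55 uninduced and 4.32, 2.80 and 2.52 induced. It was lower in each pair, with pair differences of -0.76, -1.26 and -1.04, and its change of -1.02 (SE 0.57) did not pass (adjusted p 0.348; with the block 0.0126). It ranged from -1.57 without induced replicate 1 to -0.59 without uninduced replicate 1, and the technical pair differed by -0.093. Col5a1 differed by -0.083 and Col5a2 by -0.35, and Col5a3 and Col24a1 were not bright enough to be tested. Col11a2 differed by -0.50 (SE 0.13, adjusted p 0.0901, and 0.0476 with the block).

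Of the 15 other collagens tested, the 3 that rose in limma were Col6a1, Col6a2 and Col8a2, and 0 fell, against 4.14% and 2.17% of all genes. At an unadjusted p under 0.05, 4 were higher and 3 lower, against 13.9% and 7.77%. With the block 4 rose and 1 fell, against 9.37% and 6.81%. The gene that fell with the block was Col18a1, the basement membrane collagen whose end fragment is endostatin, at -0.61 (SE 0.39, adjusted p 0.405, and 0.0351 with the block). Col7a1, the anchoring fibril collagen, differed by 0.79 (SE 0.22, adjusted p 0.0940, and 0.0298 with the block). Col22a1 differed by -1.04 (SE 0.35, adjusted p 0.154) and exceeded background clearly on 2 of 3 induced arrays. The remaining 9 differed by -0.98 to 0.36, and none of them passed with or without the block. Col10a1, Col13a1, Col17a1, Col19a1, Col26a1, Col28a1 and Col9a3 were not bright enough to be tested, and Col12a1 had no probe whose accession named it.

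**Figure D3:**
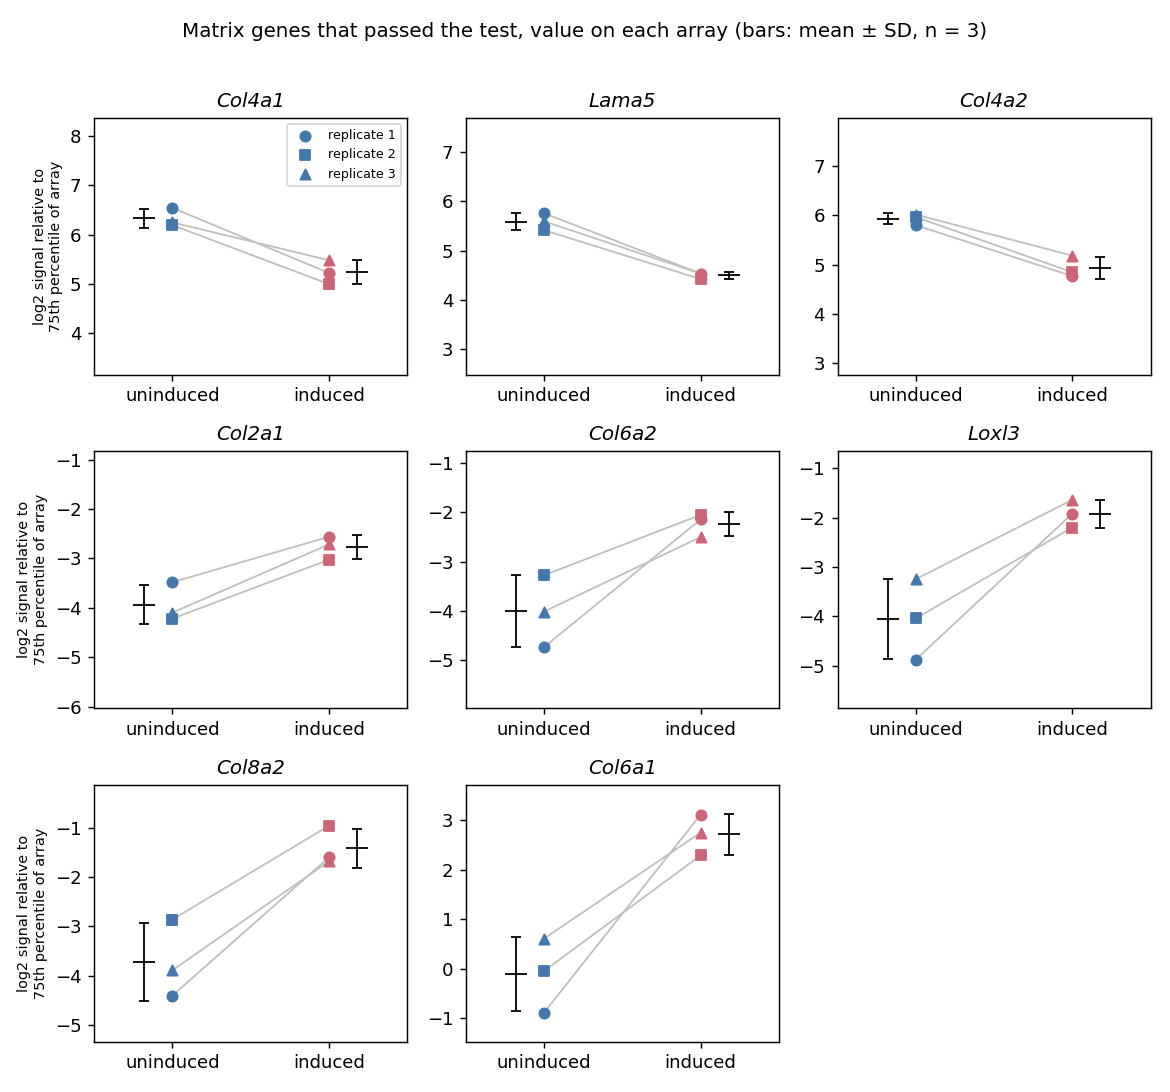
Values of 8 matrix genes that passed the test on each array (log2 signal relative to the 75th percentile of the array), with lines joining same-numbered replicates and bars for the mean ± SD of 3 arrays. In each of the 8 panels the uninduced and induced arrays do not overlap, and Col6a1 has the widest gap between group means.

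Fibronectin and the fibrillins, which form the fibrillar matrix that cells pull on, did not pass in limma. Fn1 read 8.45, 8.85 and 8.92 uninduced and 7.80, 8.23 and 8.37 induced. Its highest induced array lay just below its lowest uninduced one, and each pair was lower, with pair differences of -0.65, -0.62 and -0.55. The change was -0.61 (SE 0.21, adjusted p 0.168, and 0.0271 with the block). Fbn1 differed by -0.45 and Fbn2 by 0.14, with adjusted p of 0.318 and 0.812.

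Relative to the overall signal, all 6 matricellular and small proteoglycan genes tested had fitted changes below 0, as did 41.0% of all genes. Their median was -0.77, but 0 passed in limma. At an unadjusted p under 0.05, 2 were lower, against 7.77% of all genes, and 3 fell with the block, against 6.81%. Sparc, a collagen-binding protein of basement membranes, read 8.93, 9.48 and 9.57 uninduced and 8.46, 8.92 and 8.88 induced. Its change of -0.57 (SE 0.23) did not pass (adjusted p 0.214; with the block 0.0350). Dcn (decorin), which binds collagen fibrils, read 0.95, 0.22 and -0.78 uninduced and -1.22, -1.42 and -2.53 induced. The groups did not overlap, but each group spread widely (SD 0.87 and 0.71, n = 3), and the change of -1.85 (SE 0.52) did not pass (adjusted p 0.0980; with the block 0.00299). Postn (periostin) differed by -0.60 (adjusted p 0.349, and 0.0306 with the block). Lum, a further fibril-binding proteoglycan next to Dcn on chromosome 10, differed by -1.34 (SE 0.68, adjusted p 0.307), with pairs at -2.73, 0.0083 and -1.31, and ranged from -1.91 without induced replicate 2 to -0.76 without uninduced replicate 1. Bgn differed by -0.78 and Tnc by -0.76. With spike-in scaling Sparc and Fn1 stood at 0.55 and 0.51.

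Lysyl oxidases cross-link collagen and elastin outside the cell. Loxl3 read -4.88, -4.04 and -3.25 uninduced and -1.92, -2.20 and -1.64 induced, with no overlap, and rose by 2.13 (SE 0.41, adjusted p 0.0296 in limma), or 4.39-fold. Its change was 1.02 with normexp (adjusted p 0.102), and it also missed the threshold without the filter (0.0621) and without any 1 induced array or uninduced replicate 2 (0.0744 to 0.106). Loxl2, which acts on collagen IV, read 4.50, 4.01 and 4.54 uninduced and 5.65, 4.78 and 5.15 induced. It differed by 0.84 (SE 0.27, adjusted p 0.134, and 0.0238 with the block), and its 3 probes lay between 0.63 and 0.84. Loxl1 differed by -0.53 (adjusted p 0.153) and Loxl4 by -0.051 (95% interval -0.39 to 0.29). Their second kept probes differed by more, at -0.96 for Loxl1 and -0.54 for Loxl4, so the probes of these genes disagree in size. Lox was well above background on 4 of the 6 arrays and was not tested.

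The technical repeat arrays, 1 per group, had the same direction as the test for the 8 genes given here. The induced repeat read higher by 2.64 for Col6a1, 0.33 for Col6a2, 3.55 for Col8a2, 1.94 for Col2a1 and 2.64 for Loxl3. It differed by -0.57 for Col4a1, -1.14 for Col4a2 and -0.57 for Lama5. These arrays repeat RNA of the replicates and are no independent samples.

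Genes that process or accompany the matrix proteins were read as a list of 63. Of 54 tested, 3 rose and 0 fell in limma, against 4.14% and 2.17% of all genes, with a median change of 0.015. At an unadjusted p under 0.05, 12 were higher and 5 lower, against 13.9% and 7.77%, and with the block 12 rose and 7 fell, against 9.37% and 6.81%. Npnt (nephronectin, a basement membrane ligand of integrins) rose by 1.69 (SE 0.34), Thbs3 (a thrombospondin) by 1.68 (SE 0.37) and Tgm2, a transglutaminase that cross-links matrix, by 0.76 (SE 0.15), with adjusted p of 0.0383, 0.0474 and 0.0334. None of these calls held without the filter (0.0772, 0.0927 and 0.0823). Npnt also missed the threshold with normexp (1.09, adjusted p 0.0699), Thbs3 with quantile normalization (0.0511), and Tgm2 with quantile normalization (0.0587), with spike-in scaling (0.112) and with the technical repeats averaged with number 3 (0.0563). Left-out arrays gave 0 to 2 that rose, namely 0 without uninduced replicate 2, induced replicate 1 or induced replicate 2, 1 without uninduced replicate 3 and 2 without uninduced replicate 1 or induced replicate 3. Over all genes 273 to 541 rose with left-out arrays, against 601 in the main fit.

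Matrix receptors were read as a list of 30, of which 26 were tested, with 5 that rose and 3 that fell, against 4.14% and 2.17% of all genes, and a median of -0.33. Itgb3, the beta chain of fibrinogen and vitronectin receptors, rose by 3.91 (SE 0.28, adjusted p 0.00167 in limma). Itga11 and Ddr2, both receptors for fibrillar collagen, rose by 2.04 (SE 0.32) and 1.94 (SE 0.35), but were 0.71 and 0.38 with normexp, where neither passed. Ddr2 was well above background on 1 of 3 uninduced arrays, so its uninduced level is poorly measured, and 4 receptors rose where all 6 arrays had to be above background. The syndecans Sdc4 and Sdc1 rose by 1.26 (SE 0.21) and 1.18 (SE 0.22), with adjusted p of 0.0195 and 0.0277 in limma. Without the filter on dim probes Sdc1 (0.0624) and Ddr2 (0.0569) missed the threshold. Itga8, a nephronectin receptor chain, fell by 1.81 (SE 0.19, adjusted p 0.00419), Itga1, which binds collagen IV, by 1.16 (SE 0.25), and Itga3, which binds laminins that carry the alpha-5 or alpha-3 chain, by 0.82 (SE 0.17). With spike-in scaling Itga3 turned to 0.30, and Itga1 stood at -0.034 and Itga8 at -0.69, with none of them passing (adjusted p 0.702, 0.966 and 0.385). Itga1 also missed the threshold with median scaling (0.0559), quantile normalization (0.0502), no filter (0.0925) and technical repeats added to number 3 (0.0643). Itga3 missed it with median scaling (0.0908) and no filter (0.0889). With the block 5 rose and 7 fell, against 9.37% and 6.81% of all genes. Left-out arrays gave 1 to 5 that rose and 1 to 4 that fell. Over all genes they gave 273 to 541 and 105 to 283, against 601 and 314 in the main fit. Without induced replicate 3 the counts were 1 and 1, without uninduced replicate 2 they were 2 and 1, without uninduced replicate 3 or induced replicate 1 they were 3 and 1, and without induced replicate 2 they were 4 and 1.

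Markers of the cell types that the cultures could hold were summed per array and given as log2 of the sum, relative to the overall signal. All 10 endothelial markers (among them Cdh5, Kdr and Pecam1) were tested and well above background on all 6 arrays. This does not identify the cells, since markers of other lists, such as Acta2, Krt18 and Ptprc, were so too. All 10 endothelial markers were lower on induction by fitted value, against 41.0% of all genes below 0, and 2 fell (Eng and Tek). The summed signal of the 10 was 6.31 to 7.80 uninduced and 5.85 to 6.98 induced. For this count and those below, 4.14% of all genes rose and 2.17% fell in limma. Of 8 blood markers 3 rose (Myb, Spn and Coro1a), and the sum went from 1.15 to 2.33 up to 3.67 to 4.42. The others did not pass in limma, with Spi1 at 2.80, Lcp1 at 1.76, Itga2b at 0.63, Vav1 at 0.32 and Ptprc (CD45) at -0.19. Spi1 was well above background on 0 of 3 uninduced arrays and Myb on 2 of 3, so their uninduced levels are poorly measured. Of 12 smooth muscle and mesenchyme markers 9 were tested and 1 fell (Thy1), and their sum was 9.48 to 9.68 uninduced and 8.96 to 9.26 induced, while Myh11, Meox1 and Tcf21 were not bright enough to be tested. Of 14 endoderm markers 9 were tested, 1 rose (Foxa2) and 1 fell (Thbd), and the sum was 4.68 to 4.87 uninduced and 4.27 to 4.56 induced, while Afp, Ttr, Apoa1, Apob and Stra6 were not bright enough.

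The sums of the blood, smooth muscle and endoderm markers separated the groups without overlap. The lower endoderm sum does not hold for each of its genes. Of the 9 tested, 6 had fitted changes below 0, against 41.0% of all genes, and 3 lay above 0, with Foxa2 at 2.58. The endothelial sum overlapped between the groups but was lower in every pair, from 6.31 to 5.85, 7.31 to 6.33 and 7.80 to 6.98. The brightest probes set such a sum, and on uninduced replicate 1 Acta2 read 8.53 and Tagln 8.41 beside a smooth muscle sum of 9.48. Neither passed (adjusted p 0.0542 and 0.380), though Acta2 did with the block (0.0267), and Pdgfra and Prrx1 of the same list differed by 0.87 and 0.51. With the block 9.37% of all genes rose and 6.81% fell. In that fit 0 endothelial markers rose and 5 fell, and 5 blood markers rose and 0 fell. The 5 include Spi1 and Myb, well above background on 0 and 2 of 3 uninduced arrays. Both were kept only through the induced arrays, so their rises carry little weight. Of the smooth muscle markers 1 rose and 2 fell, of the endoderm markers 1 rose and 4 fell, and of the epithelial markers 1 rose and 1 fell. Epithelial markers summed to 7.61 to 8.62 uninduced and 7.87 to 8.34 induced over 4 of 6 genes tested, of which Cdh1 rose, and Epcam and Cldn6 were not bright enough. Only 2 of 6 cartilage and bone markers (Acan and Sp7) and 3 of 4 pluripotency markers were tested, and 0 of these passed in limma or with the block. At an unadjusted p under 0.05, 1 pluripotency marker was higher and 1 lower, and 0 cartilage and bone markers were either, against 13.9% and 7.77% of all genes. Sox9, Runx2, Ibsp, Bglap and Pou5f1 were not bright enough to be tested. The part of any of these cell types in the changes of the matrix genes was not tested.

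**Figure D4:**
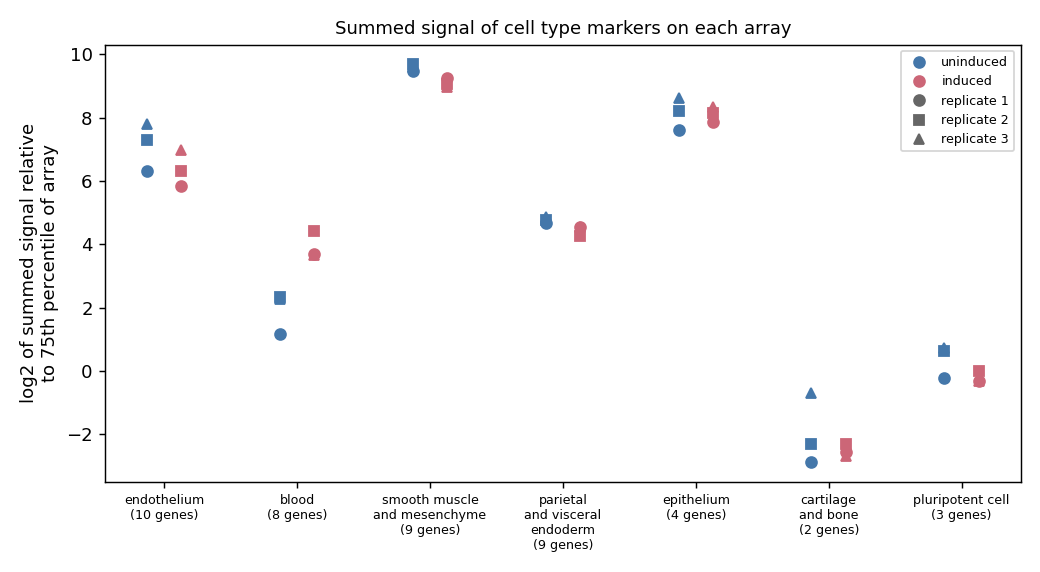
Summed signal of each list of cell type markers on each of the 6 arrays, as log2 of the sum relative to the 75th percentile of the array, for uninduced and induced replicates 1 to 3. Blood markers lie at 1.15 to 2.33 uninduced and 3.67 to 4.42 induced, and smooth muscle markers at 9.48 to 9.68 and 8.96 to 9.26.

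**Figure D5:**
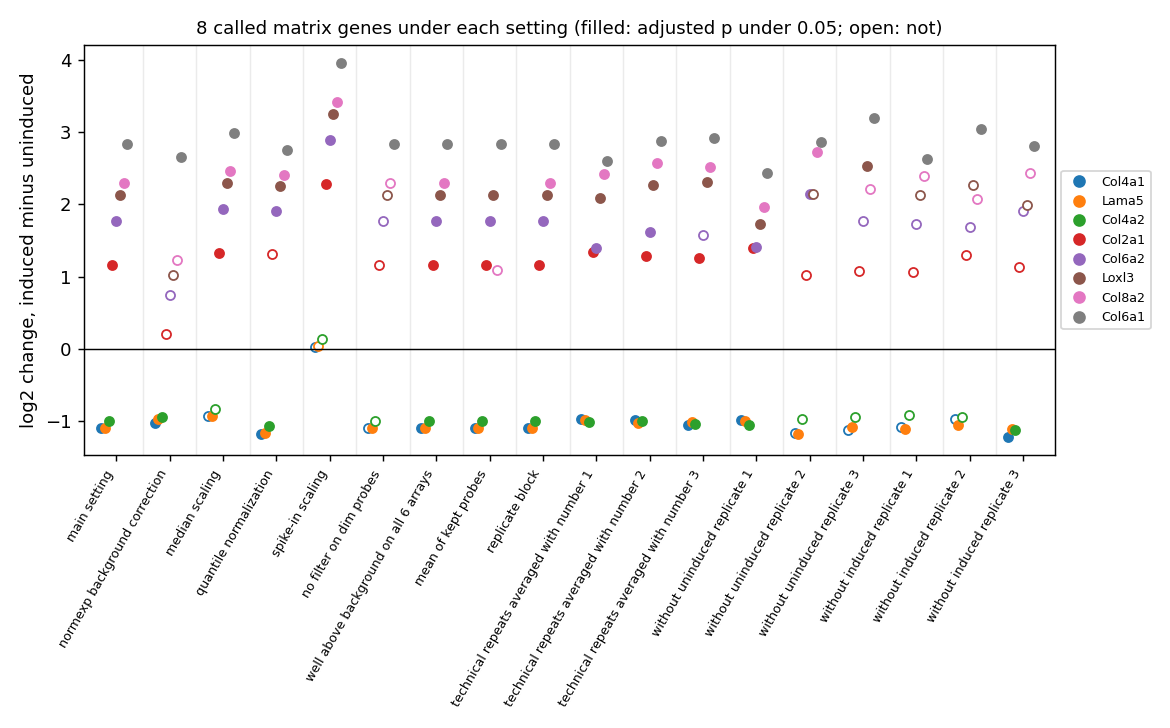
Log2 change (induced minus uninduced) of 8 matrix genes that passed, in the main setting and in each of 17 alternative settings, filled where the adjusted p was under 0.05. Col6a1 is filled in every setting, and under spike-in scaling Col4a1, Col4a2 and Lama5 lie at 0.032, 0.13 and 0.033 (SE 0.72 each).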

How the data were processed

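Each array's spots carry an intensity, gProcessedSignal, which per the file headers came from Agilent Feature Extraction 10.7.3.1 (10.7.1.1 per the submitters' processing notes, which also name limma) on a design of build mm9. The authors' deposited log2 table had column medians between 5.36 and 5.38, but 6 of its 8 columns tracked another array than the one they are named for, by correlation over 19751 spots, so it was not used. Which of the names, those of the columns or those of the scanner files, are right is not stated.

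From the intensities, control and outlier spots were left out, spots of a probe were averaged, and log2 values were set relative to the 75th percentile of each array. Probes were named through RefSeq accessions, which gave 26582 of 55681 probes 1 symbol and 29099 none. A probe was kept if well above background on all 3 arrays of a group, and each gene was read from its brightest kept probe. Induced and uninduced replicates 1 to 3 were compared with limma 3.58.1 in R 4.3.3 (lmFit, eBayes, two-sided, Benjamini-Hochberg over all 14503 genes, adjusted p under 0.05), and the script was tested on simulated data. The series states that the replicates are independent. The technical repeat arrays were left out, since the labels do not say which replicate they repeat. The number of arrays limits the precision.

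Same-numbered arrays of both groups deviated together from their group means, with correlations over all genes of 0.65, 0.45 and 0.43 for numbers 1, 2 and 3, so the numbers were taken to pair the samples and a fit with the replicate block is given beside a matrix gene where it changes its call, and as counts for the other lists. The members and lists were chosen with earlier results of these data known. Named are all members that passed, those with a change of at least 1, the collagen IV and laminin chains, Nid1, Nid2, Hspg2, Fn1 and Sparc, and the listed assembly and receptor genes that passed. Counts cover all members tested, but 1 member is not reported here by name or value. Other members with values were named after their values were seen. Normexp (offset 50) was run on gMedianSignal and gBGMedianSignal, because the mean signal planned for it was not among the columns used here.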

Additional observations from a re-analysis of the deposited data

How the results depend on the processing

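Of the 9 genes that passed, all 9 kept their call with the replicate block, which added 14 members and otherwise changed no call among the 9. The block gave 10 members that rose and 13 that fell, 12 and 7 assembly genes, 7 receptors that fell and 2346 genes changed in all (915 without it). Of all genes 1359 rose and 987 fell with the block, against 601 and 314 without the block. Normexp gave 1 member and 3 receptors that rose, beside 422 of all genes. Median scaling, which moved the median of all genes from 0.089 to 0.25, gave 2 members that fell and a member median of -0.14. Of all genes 215 fell with median scaling. Quantile normalization gave 1 assembly gene that rose, beside 594 of all genes. Spike-in scaling, which moved the median of all genes to 1.21, gave 0 members and 0 receptors that fell. It gave 6 assembly genes that rose and a member median of 0.82. Only 11 of all genes fell with it and 724 rose, so the lack of falls is not particular to the matrix genes. With no filter on dim probes there were 1 member that rose and 2 that fell, 0 assembly genes and 3 receptors that rose, 1 receptor that fell and 534 genes changed. Of all genes 356 rose and 178 fell without that filter. Averaging the technical repeats with number 1 gave 8 members that rose, 6 and 3 assembly genes, 5 receptors that fell and 1624 genes changed, and with number 2 it gave 9, 6 assembly genes that rose and 1620 genes. Of all genes 1038 rose and 586 fell with number 1, and 1047 and 573 with number 2. The cause of these differences was not tested.

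Leaving out 1 array at a time gave 1 to 5 members that rose and 2 to 4 that fell, a member median of -0.38 to -0.28, 378 to 824 genes changed, 0 to 2 assembly genes that rose and 0 that fell, and 1 to 5 receptors that rose and 1 to 4 that fell. Of all genes 273 to 541 rose and 105 to 283 fell, so calls were lost over all genes and not only among the members. The change ranged over 0 with left-out arrays for Col4a4 (-0.49 to 0.079), Col4a6 (-0.22 to 0.050), Lamb1 (-0.11 to 0.059) and Lamb3 (-0.26 to 0.97).

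Signs turned with normexp for Lamb1 (0.070) and Lamb3 (-0.35), with median scaling for Col4a6 (0.070) and Lamb1 (0.12), and with averaged technical repeats for Lamb1 (0.051, 0.030 and 0.013 with numbers 1, 2 and 3) and Col4a4 (0.020 with number 3). With spike-in scaling they turned for Col4a1 (0.032), Col4a2 (0.13), Lama5 (0.033), Col3a1 (0.11), Col22a1 (0.080), Hspg2 (0.82), Nid1 (0.61), Col4a4 (0.94), Col4a5 (0.88), Col4a6 (1.04), Lama1 (0.73), Lama4 (0.32), Lamb1 (1.09), Lamb2 (0.42), Lamc1 (0.59), Fn1 (0.51), Sparc (0.55) and Itga3 (0.30). Spike-in scaling added the same 1.12 to every change, and these values each had an SE of 0.72. The turned signs therefore do not show that a gene was unchanged or higher. The slide could not serve as a block because all 8 arrays share 1 slide, and the deposited log2 table was not run because of its column names. Probes near background limit what can be read for Col2a1, Col6a2, Col8a2, Loxl3, Col27a1, Col22a1, Lamc3, Npnt, Ddr2 and Itga11, whose changes were over 1.5 times smaller with normexp.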
